A study of Mus musculus with 12 samples.

Results

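The comparison set Flt3 knockout (KO) cDC2 against wild-type (WT) cDC2, on 2 arrays each, 4 of the 12 arrays of the series. The 4 arrays were chosen by their titles. Each array held RNA from mature conventional dendritic cells sorted from enzyme-digested mouse spleen at steady state. The other arrays used here were Flt3L KO cDC2 (2 arrays), which lack the ligand and not the receptor, and Flt3 KO cDC1 with WT cDC1 (2 arrays each). Flt3L KO cDC1 (2 arrays) entered only the estimate of the spread. The labels describe the 2 arrays of a group as biological replicates. They give no strain, age, sex, allele or number of mice per array, and every p-value therefore reflects how far these arrays scattered, which may be technical. The Flt3 KO cells are the cDC2 that could still be sorted from a mouse without the receptor, not WT cells from which it was removed.

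Type 2 conventional dendritic cells (cDC2) take up antigen and present it to CD4 T cells. FLT3 is a receptor tyrosine kinase of dendritic cell progenitors and of mature dendritic cells; on binding FLT3 ligand it signals through PI3K, ERK and STAT proteins and supports the expansion of the lineage. In the mouse spleen, cDC2 hold a Notch2-dependent ESAM-high subset and an ESAM-low subset with more monocyte-like expression. Macrophages of the spleen depend on M-CSF and its receptor instead, and make the complement protein C1q.

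Values are linear intensities per probe set, analysed on the log2 scale, and a gene with several probe sets is represented by its brightest. Genes were tested with limma, with the 6 groups of the series sharing 1 estimate of the spread, and were called at an adjusted p under 0.05 (Benjamini-Hochberg over 14953 genes). A difference is the log2 difference Flt3 KO cDC2 minus WT cDC2 with its standard error (SE). The median SE was 0.0937, the median difference over all genes tested was 0.011, and 5% of genes lay below -0.181 and 5% above 0.207. A gene below an array's lower quartile over genes (an intensity of 26.6 to 27.2 on the 4 arrays) is called dim here. The standard deviation of the log2 difference between replicates was 0.154 in Flt3 KO cDC2 and 0.131 in WT cDC2. Groups are said not to overlap where both arrays of 1 group lay above both of the other. Of all genes tested, 22.5% lay so with Flt3 KO cDC2 higher and 16.9% with it lower, so non-overlap alone was common.

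Few genes differed past the threshold: 16 of 14953 (0.107%) were called, 12 higher (0.0803%) and 4 lower (0.0268%) in Flt3 KO cDC2. The genes that rose included C1qa, Vcam1 and Ms4a7, all known from macrophages, and Lyz2, a lysozyme gene of myeloid cells that was also bright in WT cDC1. Others were the lipid chaperone gene Fabp5, the cytokine gene Osm and the mitochondrial enzyme gene Nnt. Those that fell were Flt3 itself, Bank1, Klra5 and Lnx2. Without adjustment, 1089 genes (7.28%) had a p under 0.05, 669 higher (4.47%) and 420 lower (2.81%). These shares are the background for every count of list members at an unadjusted p below. The values of the 16 genes by array and the differences of all genes are plotted.

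**Figure D1:**
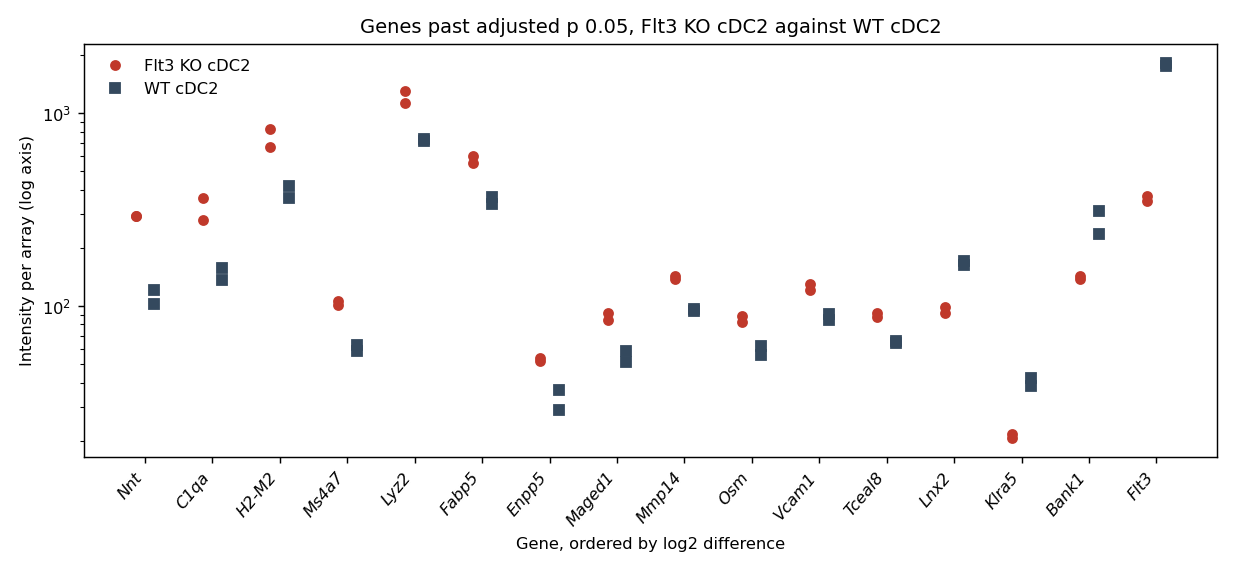
Intensity (log axis) of the 16 genes past adjusted p 0.05 on each array of Flt3 KO cDC2 (circles, n = 2) and WT cDC2 (squares, n = 2), ordered by log2 difference. The groups do not overlap for any of the 16 genes, which were chosen by p-value on these same arrays. Of all genes tested, 22.5% lay so with Flt3 KO cDC2 higher and 16.9% with it lower. Klra5 has the lowest intensities among the knockout arrays.

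**Figure D2:**
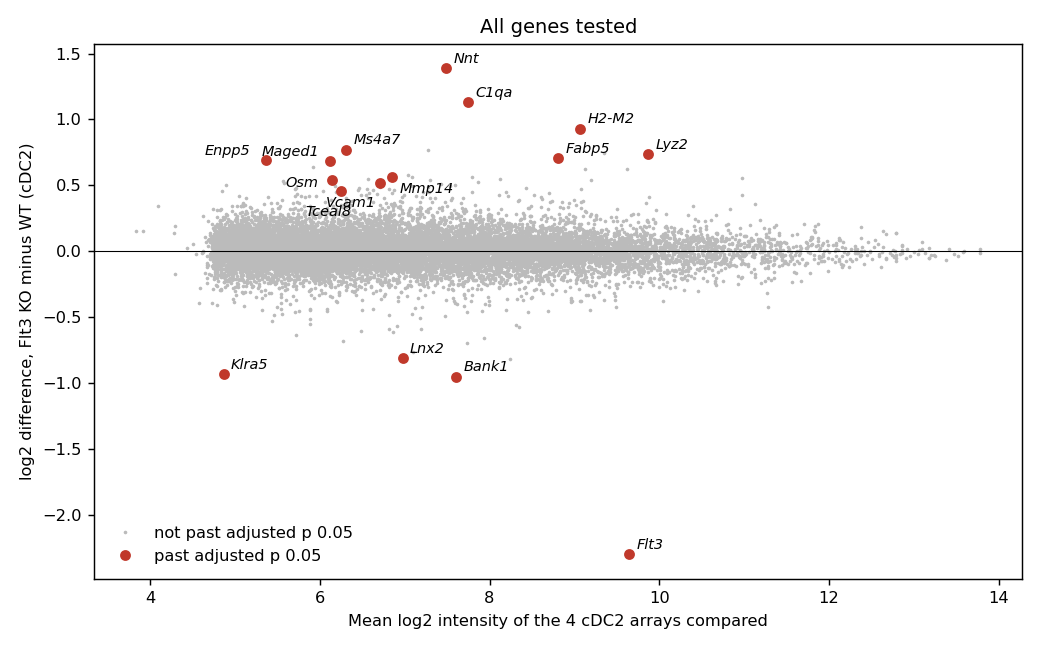
Log2 difference (Flt3 KO minus WT, cDC2) of 14953 genes against their mean log2 intensity on the 4 arrays, 1 point per gene. Flt3, Nnt and C1qa are the 3 genes that differ by more than 1 on the log2 scale, and the 16 genes past adjusted p 0.05 are named.

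Flt3, the targeted gene, had intensities of 351 and 371 on the Flt3 KO cDC2 arrays, against 1817 and 1742 on the WT cDC2 arrays. The gene fell by 2.30 ± 0.072 (SE, log2; adjusted p = 3.17e-09), and the groups lay far apart. The knockout arrays remained well above the lower quartile of intensity; the part of the gene that was deleted is not given in the labels, and 1 probe set measured the gene. Flt3l, which encodes the ligand, had 138 and 131 in Flt3 KO cDC2, against 145 and 149 in WT cDC2, and did not pass the test (-0.13 ± 0.076, adjusted p = 0.819). Among the related receptors, Csf1r, the M-CSF receptor, had 1576 and 1465 in Flt3 KO cDC2, against 1217 and 1179.7 in WT cDC2. These groups did not overlap, but the difference of 0.34 ± 0.094 was not called (adjusted p = 0.323). Kit, the stem cell factor receptor, had 3528 and 3957 in Flt3 KO cDC2, against 3854 and 3808 in WT cDC2, and these overlapped. Of 5 tested genes for the GM-CSF, IL-3 and G-CSF receptors 0 were called (1 higher and 0 lower at an unadjusted p under 0.05). The lowest p among them was that of Csf3r, the G-CSF receptor, with 243 and 192 in Flt3 KO cDC2, against 167 and 160.3 in WT cDC2 (adjusted p = 0.316).

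Genes for the proteins that relay the FLT3 signal showed small differences. Of 25 tested relay genes (adaptors, PI3K, RAS and ERK steps) 0 were called, 1 was higher and 1 lower at an unadjusted p under 0.05, and the median difference was 0.019. The lower one was Sos1, a RAS exchange factor, with 103 and 105 in Flt3 KO cDC2, against 115 and 120.4 in WT cDC2 (adjusted p = 0.616). The higher one was Gab2, a docking adaptor, with 456 and 537 in Flt3 KO cDC2, against 438 and 394 in WT cDC2 (adjusted p = 0.634). Of 21 STAT and SOCS genes, 0 were called and 0 reached an unadjusted p under 0.05. Immediate early genes and ERK feedback genes, which report recent kinase signalling, had 0 of 31 called, with 5 higher and 0 lower at an unadjusted p under 0.05. Over all genes, 4.47% were higher and 2.81% lower at that p. Egr1, an immediate early transcription factor, had 576 and 551 in Flt3 KO cDC2, against 477 and 465 in WT cDC2, and Dusp4, an ERK phosphatase, had 112 and 149.8 in Flt3 KO cDC2, against 108 and 96.6 in WT cDC2. Neither pair of groups overlapped, and their adjusted p-values were 0.505 and 0.466.

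The largest of the macrophage-type rises was that of C1qa, 1 of the 3 chains of C1q, the protein that starts the classical complement pathway. It had intensities of 363 and 279.8 in Flt3 KO cDC2, against 135 and 157 in WT cDC2, a difference of 1.13 ± 0.15 (SE; adjusted p = 0.0107). The genes for the other chains had the same direction without a call. C1qb had 234 and 174 in Flt3 KO cDC2, against 119 and 118 in WT cDC2 (0.77 ± 0.18, adjusted p = 0.23). C1qc had 130.1 and 96.0 in Flt3 KO cDC2, against 84.0 and 80.5 in WT cDC2 (0.44 ± 0.22, adjusted p = 0.718). For each chain the groups did not overlap, and replicate 1 was the higher of the knockout arrays. In bulk RNA from sorted cells, more cells of a type and more RNA per cell cannot be told apart, for these genes and all others.

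Vcam1, an adhesion molecule of macrophages and vessel walls, had 129.6 and 121 in Flt3 KO cDC2, against 84.5 and 90.9 in WT cDC2, and rose by 0.51 ± 0.077 (SE; adjusted p = 0.0321). Ms4a7, a membrane protein gene of macrophages, had 106 and 101 in Flt3 KO cDC2, against 58.7 and 62.8 in WT cDC2, and rose by 0.77 ± 0.13 (adjusted p = 0.0415). Both were modest in level, near 100 in the knockout. Lyz2, the lysozyme gene of myeloid cells, was brighter, with 1297 and 1129 in Flt3 KO cDC2, against 716 and 735 in WT cDC2, and rose by 0.74 ± 0.088 (adjusted p = 0.00756). Lyz1, a near-identical copy that could share probes with it, had 754 and 939.7 in Flt3 KO cDC2, against 461 and 547 in WT cDC2 (adjusted p = 0.14), so the lysozyme genes may not be independent measurements. Their groups did not overlap.

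Promoter sequence was available for C1qb, C1qc, Lyz2 and H2-M2 but not for C1qa, and these 4 are shown as examples of genes of the C1q group and of called genes that hold a searched motif. Each line gives the 250 bases before the annotated start (RefSeq, GRCm38.p6), 5′ to 3′ on the gene's strand. Capitals mark the ETS core GAGGAA (bound by factors such as PU.1) or the RBPJ core TGGGAA (the Notch effector), in either orientation.
C1qb, chr4:136886201-136886450, minus strand: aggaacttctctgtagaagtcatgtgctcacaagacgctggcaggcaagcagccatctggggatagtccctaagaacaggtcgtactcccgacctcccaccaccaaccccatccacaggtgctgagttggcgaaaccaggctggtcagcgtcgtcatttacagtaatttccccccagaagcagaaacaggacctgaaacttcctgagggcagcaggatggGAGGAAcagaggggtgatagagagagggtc
C1qc, chr4:136892915-136893164, minus strand: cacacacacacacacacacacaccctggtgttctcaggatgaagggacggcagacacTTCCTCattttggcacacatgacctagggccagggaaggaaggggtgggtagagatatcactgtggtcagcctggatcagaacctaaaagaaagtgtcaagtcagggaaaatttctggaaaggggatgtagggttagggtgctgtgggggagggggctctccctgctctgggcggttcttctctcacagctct
Lyz2, chr10:117282273-117282522, minus strand: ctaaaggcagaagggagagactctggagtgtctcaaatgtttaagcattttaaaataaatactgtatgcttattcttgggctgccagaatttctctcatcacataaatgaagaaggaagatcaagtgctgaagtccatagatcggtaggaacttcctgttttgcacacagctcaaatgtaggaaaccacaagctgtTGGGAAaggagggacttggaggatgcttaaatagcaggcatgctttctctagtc
H2-M2, chr17:37483555-37483804, minus strand: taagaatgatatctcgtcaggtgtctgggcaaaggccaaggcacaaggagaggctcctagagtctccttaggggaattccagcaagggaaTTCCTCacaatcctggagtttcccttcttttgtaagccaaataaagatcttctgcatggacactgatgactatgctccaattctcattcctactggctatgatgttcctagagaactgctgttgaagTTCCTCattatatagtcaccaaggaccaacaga
C1qb held 1 ETS core on the gene's strand and C1qc held 1 on the opposite strand. Lyz2 held 1 RBPJ core, and H2-M2 held 2 ETS cores on the opposite strand. Promoters were found for 10 of the 16 called genes (11 promoters), and 3 of these 11 held an ETS core and 3 an RBPJ core. Over all 32851 promoters of the same length, 23.3% held the ETS core and 21.6% the RBPJ core. These matches describe letters only.

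Of 24 tested genes of the C1q and macrophage list, 2 were called higher (C1qa and Vcam1) and 0 lower, and the median difference was 0.23. At an unadjusted p under 0.05, 9 were higher and 2 lower (4.47% and 2.81% over all genes). Groups did not overlap for 14 higher and 3 lower members, where 22.5% and 16.9% of all genes lay so. Nr1h3, the liver X receptor alpha gene of lipid-handling macrophages, had 158 and 164 in Flt3 KO cDC2, against 113 and 103 in WT cDC2 (0.58 ± 0.11, adjusted p = 0.0866). Timd4, a receptor for dying cells on resident macrophages, ran the other way, with 151 and 193 in Flt3 KO cDC2, against 237 and 215 in WT cDC2 (adjusted p = 0.277). The summed intensity of the list was 8575 and 8333 on the Flt3 KO cDC2 arrays and 7591 and 7368 on the WT cDC2 arrays. The red pulp macrophage genes Cd5l, Vsig4 and Slc40a1 were dim on all 4 arrays. The part of macrophages carried through the sort in these values was not tested.

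Markers of other cell types were examined next. Of 12 tested monocyte genes, 0 were called and 0 reached an unadjusted p under 0.05 in either direction, with a median of 0.017 and summed intensities of 13860 and 13546 in Flt3 KO cDC2 and 13933 and 14206 in WT cDC2. Neutrophil genes had 0 of 8 called, T cell genes 0 of 11, NK cell genes 0 of 6, plasmacytoid dendritic cell genes 0 of 9, and erythroid and platelet genes 0 of 9. Dim on all 4 arrays were 2 of 15 monocyte genes with a value (Chil3 among them), 3 of 14 T cell genes (Cd3g among them), 7 of 13 NK cell genes (Ncr1, Gzma and Klrb1c among them) and 5 of 15 neutrophil genes. Most monocyte and T cell genes therefore reached the lower quartile on at least 1 array, which does not show that the sorted cells expressed them. The neutrophil sums were 746 and 711 in Flt3 KO cDC2 and 684 and 768 in WT cDC2, and the T cell sums were 758 and 784 in Flt3 KO cDC2 and 813 and 824 in WT cDC2. Siglech, a plasmacytoid dendritic cell marker, had 118 and 129 in Flt3 KO cDC2, against 90.1 and 86.8 in WT cDC2 (adjusted p = 0.616).

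Markers of the label were set against cDC1 within each probe set. Sirpa, an inhibitory receptor that defines cDC2, had 3695 and 3776 in Flt3 KO cDC2, against 3585 and 3674 in WT cDC2, and 109 and 103 in WT cDC1. Xcr1, the chemokine receptor that defines cDC1, had 56.3 and 63.1 in Flt3 KO cDC2, against 73.7 and 59.6 in WT cDC2, which overlapped, and 2799 and 2956 in WT cDC1. Both cDC2 groups were thus above WT cDC1 for Sirpa and below it for Xcr1. Of 24 tested cDC2 markers 0 were called, with 5 higher and 1 lower at an unadjusted p under 0.05 and a median of 0.032. The lower one was Itgam, which encodes CD11b, with 678 and 569.8 in Flt3 KO cDC2, against 782 and 892 in WT cDC2 (-0.43 ± 0.11, adjusted p = 0.274). Irf4, a transcription factor of cDC2, had 841 and 939.6 in Flt3 KO cDC2, against 1057 and 1064 in WT cDC2 (adjusted p = 0.706). Itgam had the lowest difference of the list, and the highest was 0.39. Groups did not overlap for 10 higher and 6 lower of the cDC2 markers, where 22.5% and 16.9% of all genes lay so.

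Of 23 tested cDC1 markers 0 were called in cDC2, and the median was 0.11. At an unadjusted p under 0.05, 11 were higher and 1 lower, where 4.47% and 2.81% of all genes were so. Irf8, the transcription factor that cDC1 require, had 405 and 409.5 in Flt3 KO cDC2, against 311 and 275 in WT cDC2, a difference of 0.48 ± 0.083 just outside the threshold (adjusted p = 0.066). Clec9a, a receptor for dead-cell material, had 206 and 255 in Flt3 KO cDC2, against 167 and 156 in WT cDC2 (adjusted p = 0.256). Batf3, a partner factor of cDC1, had 676 and 666 in Flt3 KO cDC2, against 573 and 538 in WT cDC2 (adjusted p = 0.346). None of these groups overlapped, while Xcr1 and Tlr3, which also mark cDC1, had differences of -0.15 and -0.24. Differences over the list ran from -0.44 to 0.50, the highest being that of Clec9a. Groups did not overlap for 11 higher and 5 lower of the cDC1 markers, where 22.5% and 16.9% of all genes lay so. The cDC1 marker sums were 9602 and 9723 in Flt3 KO cDC2 and 9060 and 9219 in WT cDC2; the part of cDC1 in the sorted cells was not tested. Of 37 lineage transcription factor genes 0 were called, with 7 higher and 2 lower unadjusted and a median of -0.004.

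Of 19 tested genes of the ESAM-low subset, 1 was called higher (Lyz2) and 0 lower. At an unadjusted p under 0.05, 9 were higher and 0 lower (4.47% and 2.81% over all genes). Groups did not overlap for 11 higher and 2 lower members, where 22.5% and 16.9% of all genes lay so. The median was 0.32, or 0.27 without Lyz2. The second median still held Lyz1, which had the highest difference of the list (0.745) and may share probes with Lyz2. Fcgr3, a low-affinity IgG receptor, had 176 and 171 in Flt3 KO cDC2, against 124 and 130.1 in WT cDC2 (0.45 ± 0.083, adjusted p = 0.0866). Tmem176a, an MS4A-related membrane protein gene, had 2329.7 and 2336 in Flt3 KO cDC2, against 1792 and 1683 in WT cDC2 (adjusted p = 0.262). Cd14, the lipopolysaccharide coreceptor, had 1091 and 1082 in Flt3 KO cDC2, against 822 and 808 in WT cDC2 (adjusted p = 0.329). The knockout arrays lay above the WT arrays for each of these 3 genes. The list's summed intensity was 20114 and 19300 in Flt3 KO cDC2 and 16847 and 16652 in WT cDC2.

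Of 13 tested genes of the ESAM-high, Notch2-dependent subset 0 were called, with 0 higher and 3 lower unadjusted and a median of -0.044. The lower ones were Cdh17, a cadherin gene, with 106 and 83.6 in Flt3 KO cDC2, against 121 and 171 in WT cDC2 (adjusted p = 0.256), the transcription factor gene Tbx21 and the Notch regulator gene Dtx1. Tbx21 had 347 and 361 in Flt3 KO cDC2, against 464 and 505 in WT cDC2 (adjusted p = 0.468). Esam, the adhesion molecule that names the subset, had 145 and 155 in Flt3 KO cDC2, against 143 and 130.2 in WT cDC2, a difference of 0.14 ± 0.099. The plot of gene lists sets these members beside the other groups.

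**Figure D3:**
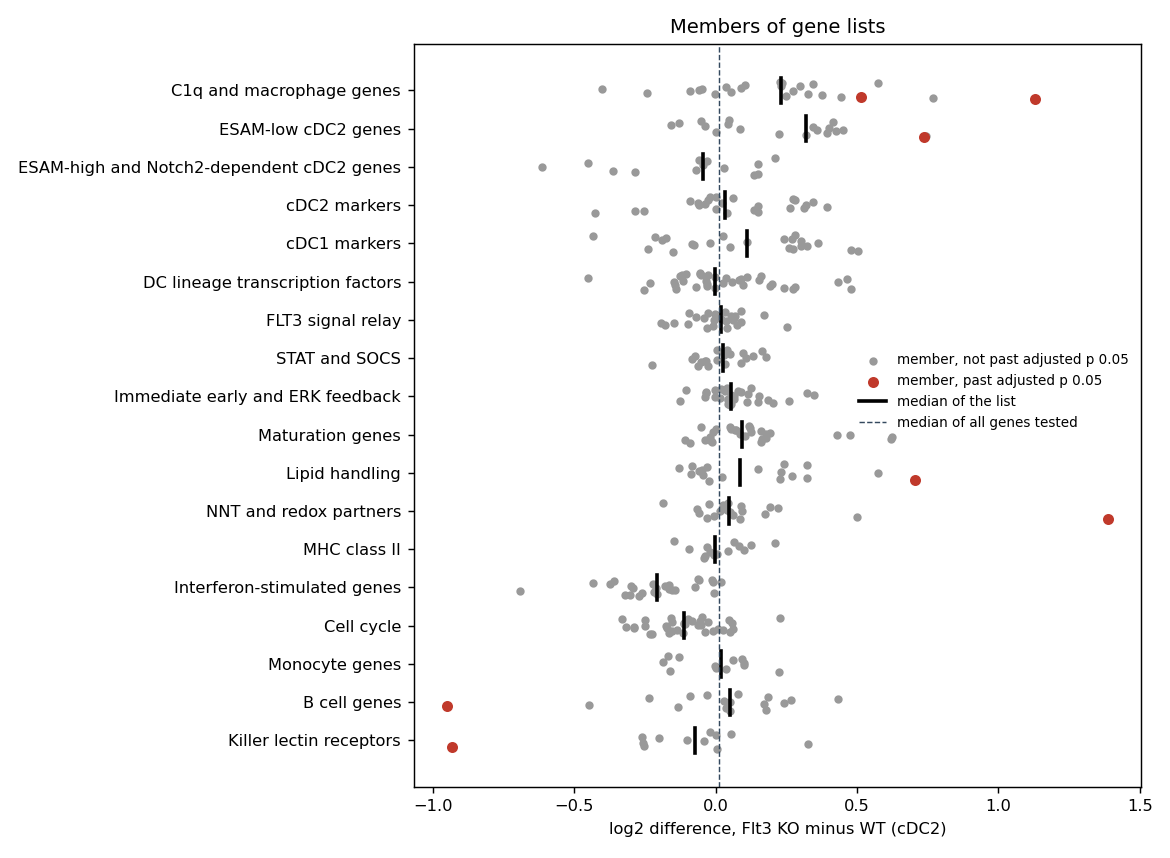
Log2 difference (Flt3 KO minus WT, cDC2) of each tested member of 18 gene lists, with called members in red, the list median as a black bar and the median of all genes as a dashed line. The ESAM-low and the C1q and macrophage medians lie right of the dashed line, and the interferon-stimulated median lies left of it.

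Antigen presentation genes had 1 call in all. MHC class II genes, which present peptides to CD4 T cells, had 0 of 14 called and a median of -0.001, with 1 higher unadjusted (Ctss, a protease that trims the invariant chain). Among 18 class I and nonclassical genes 1 was called: H2-M2, a nonclassical class I gene, had 668 and 823 in Flt3 KO cDC2, against 363 and 418 in WT cDC2, and rose by 0.93 ± 0.15 (SE; adjusted p = 0.0447). Its groups lay apart, and no other member of that list reached an unadjusted p under 0.05.

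Receptors that sense microbes had no call: 0 of 14 Toll-like receptor genes and 0 of 23 lectin genes, although 6 lectins were higher and 2 lower unadjusted. Clec4e, which encodes Mincle, had 60.7 and 53.9 in Flt3 KO cDC2, against 37.4 and 42.5 in WT cDC2 (adjusted p = 0.576). Clec4a2, an inhibitory lectin of the same cluster, had 175 and 161 in Flt3 KO cDC2, against 225 and 211 in WT cDC2 (adjusted p = 0.262). These lectins therefore had opposite signs, neither past the threshold.

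Maturation genes had 0 of 28 called, 5 higher and 0 lower unadjusted (4.47% and 2.81% over all genes), and a median of 0.094. Their groups lay apart for 12 higher and 0 lower members (22.5% and 16.9% over all genes). Fscn1, the actin-bundling protein of mature dendritic cells, had 968 and 986 in Flt3 KO cDC2, against 736 and 548 in WT cDC2 (0.62 ± 0.13, adjusted p = 0.123). Il12b, a subunit of IL-12 and IL-23, had 587 and 688 in Flt3 KO cDC2, against 523 and 400.1 in WT cDC2 (adjusted p = 0.262). Among 20 cytokine genes 1 was called: Osm, an IL-6 family cytokine, had 88.0 and 82.4 in Flt3 KO cDC2, against 55.6 and 61.6 in WT cDC2, and rose by 0.54 ± 0.082 (adjusted p = 0.0321). Chemokine genes had 0 of 18 called and chemokine receptor genes 0 of 16. Of 24 integrin and adhesion genes Vcam1 alone was called. Mmp14, a membrane-bound metalloprotease, had 143 and 138 in Flt3 KO cDC2, against 95.9 and 94.5 in WT cDC2, and rose by 0.56 ± 0.089 (adjusted p = 0.0356).

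Fabp5, a fatty acid binding protein, was the called gene of 18 lipid handling genes, with 596 and 549 in Flt3 KO cDC2, against 336 and 366 in WT cDC2, and rose by 0.71 ± 0.087 (SE; adjusted p = 0.00756). The dimmer of its 2 probe sets gave a difference of 0.68. Of the list, 5 were higher and 0 lower unadjusted (4.47% and 2.81% over all genes), and the median was 0.085. Npc2, a lysosomal cholesterol carrier, had 819 and 799 in Flt3 KO cDC2, against 645 and 648 in WT cDC2 (adjusted p = 0.262). Cholesterol synthesis genes had 0 of 20 called, with 5 higher and 0 lower unadjusted (4.47% and 2.81% over all genes).

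Nnt, the mitochondrial transhydrogenase that makes NADPH from NADH, had 291 and 291 in Flt3 KO cDC2, against 102 and 121 in WT cDC2, and rose by 1.39 ± 0.088 (SE; adjusted p = 1e-05). Its groups lay wide apart. The gene is disrupted in some substrains of laboratory mice, and the labels give no strain for any group. Strain and genotype cannot be told apart here, for Nnt or for any other gene compared with WT. Nnt was also called in Flt3L KO cDC2 against WT cDC2 and in Flt3 KO cDC1 against WT cDC1. It was not called between Flt3 KO cDC2 and Flt3L KO cDC2. Of 20 redox genes Nnt alone was called, and 5 were higher unadjusted. Gsr, glutathione reductase, had 231 and 209 in Flt3 KO cDC2, against 157 and 154 in WT cDC2 (adjusted p = 0.0866). Oxidative phosphorylation genes had 0 of 33 called and 0 at an unadjusted p under 0.05 in either direction, and glycolysis genes had 0 of 17 called.

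Of 26 tested interferon-stimulated genes 0 were called, 0 were higher and 5 lower unadjusted (4.47% and 2.81% over all genes), and the median was -0.21. Groups lay apart for 16 lower and 0 higher members, where 16.9% and 22.5% of all genes lay so. Oas2, an antiviral oligoadenylate synthetase, had 180.3 and 155 in Flt3 KO cDC2, against 297 and 246 in WT cDC2 (-0.69 ± 0.18, adjusted p = 0.277). Cell cycle genes had 0 of 35 called, 1 higher and 2 lower unadjusted, and a median of -0.11. Their groups overlapped for 26 and lay apart for 3 higher and 6 lower members (22.5% and 16.9% over all genes). BCL2 family genes, which set cell survival, had 0 of 15 called and 0 unadjusted.

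Bank1, a B cell scaffold protein also found in dendritic cells, had 138 and 142 in Flt3 KO cDC2, against 236 and 309.8 in WT cDC2, and fell by 0.95 ± 0.15 (SE; adjusted p = 0.0348). The WT arrays differed more from each other than the knockout arrays did, and the groups did not overlap. Of 17 tested B cell genes it alone was called, and 1 was higher and 2 lower unadjusted, Bank1 included. Cd22, an inhibitory lectin of B cells, had 539 and 460.1 in Flt3 KO cDC2, against 687 and 673 in WT cDC2 (adjusted p = 0.254). The B cell sums were 4159 and 4220 in Flt3 KO cDC2 and 4185 and 4381 in WT cDC2, and Ms4a1, which encodes CD20, had 65.5 and 75.1 in Flt3 KO cDC2, against 61.2 and 62.8 in WT cDC2. Of 21 B cell genes with a value, 3 were dim on all 4 arrays, Cd79a (a chain of the B cell receptor) among them, and the others were not. The part of B cells in the Bank1 value was not tested.

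Klra5, a killer lectin-like receptor, had 20.6 and 21.7 in Flt3 KO cDC2, against 38.4 and 42.4 in WT cDC2, and fell by 0.93 ± 0.11 (adjusted p = 0.00756). Its knockout values were dim, so the size of the fall is imprecise, and Ly49 genes resemble each other closely enough to share probes. Of 12 tested killer lectin receptor genes it alone was called.

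Beside Mmp14, 3 more called genes outside the lists rose. Tceal8, a small nuclear protein gene on the X chromosome, had 87.2 and 91.4 in Flt3 KO cDC2, against 66.0 and 64.1 in WT cDC2, and rose by 0.46 ± 0.071 (adjusted p = 0.0356). Maged1, a melanoma antigen family adaptor, had 84.4 and 91.6 in Flt3 KO cDC2, against 51.4 and 58.3 in WT cDC2, and rose by 0.68 ± 0.11 (adjusted p = 0.0356). Enpp5, a member of the ectonucleotide pyrophosphatase family, had 51.7 and 53.4 in Flt3 KO cDC2, against 36.6 and 29.0 in WT cDC2, and rose by 0.69 ± 0.11 (adjusted p = 0.0356). In each of these 3 genes the groups lay apart at low intensity.

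Lnx2, an E3 ubiquitin ligase that binds the Notch regulator NUMB, lies 6 genes with a value before Flt3 in the gene order. It had 91.3 and 98.7 in Flt3 KO cDC2, against 163 and 171 in WT cDC2, and fell by 0.81 ± 0.12 (SE; adjusted p = 0.0244). Of the 10 genes with a value on either side of Flt3, it alone was called; 7 of the 20 were higher, 13 lower, and their median was -0.039. Its neighbour Polr1d, an RNA polymerase subunit, had 589 and 561 in Flt3 KO cDC2, against 794 and 692 in WT cDC2 (adjusted p = 0.193). In cDC1, Lnx2 and Polr1d differed between Flt3 KO and WT by -1.40 ± 0.12 and -0.65 ± 0.082 (adjusted p = 0.00015 and 0.0129). Among the 10 genes after Flt3, the lowest difference in cDC2 was that of Hmgb1 (-0.337 ± 0.109, adjusted p = 0.439). Hsph1, a chaperone 15 genes after Flt3, lay outside these 20 genes and was not chosen by position. It had 217 and 175 in Flt3 KO cDC2, against 329 and 288 in WT cDC2 (-0.66 ± 0.12, adjusted p = 0.073). The effect of sequence carried along with the targeted allele was not tested.

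The same knockout in cDC1 shares no array with the cDC2 comparison, and limma called 12 genes there (0.0803%). Of the 16 genes called in cDC2, 3 were also called in cDC1: Flt3, Nnt and Lnx2. The difference of the knockout effect between the cell types, tested directly, was called for 0 genes by limma. At an unadjusted p under 0.05 there were 1342 (8.97%). The WT cDC1 replicates stood further apart than those of any other group, with a standard deviation of their log2 difference of 0.21. Replicate 1 of WT cDC1 had lower and upper quartiles of 25.7 and 198.1 over probe sets, against 23.6 and 212.5 on replicate 2. Its lower quartile was the highest of the 12 arrays and its upper quartile the lowest. Lyz2 had 1166 and 1172 in Flt3 KO cDC1, against 1211 and 1288 in WT cDC1, so its cDC2 effect exceeded its cDC1 effect by 0.83 ± 0.12 (adjusted p = 0.106). C1qa had 69.4 and 69.7 in Flt3 KO cDC1, against 84.0 and 78.8 in WT cDC1, a difference of effects of 1.36 ± 0.21 (adjusted p = 0.106). Nnt had 362 and 327 in Flt3 KO cDC1, against 115 and 117 in WT cDC1, with a difference of effects of -0.18 ± 0.13 (adjusted p = 0.658). Lyz2 and C1qa were thus higher in the knockout in cDC2 and not in cDC1 by their array values, without a called difference.

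**Figure D4:**
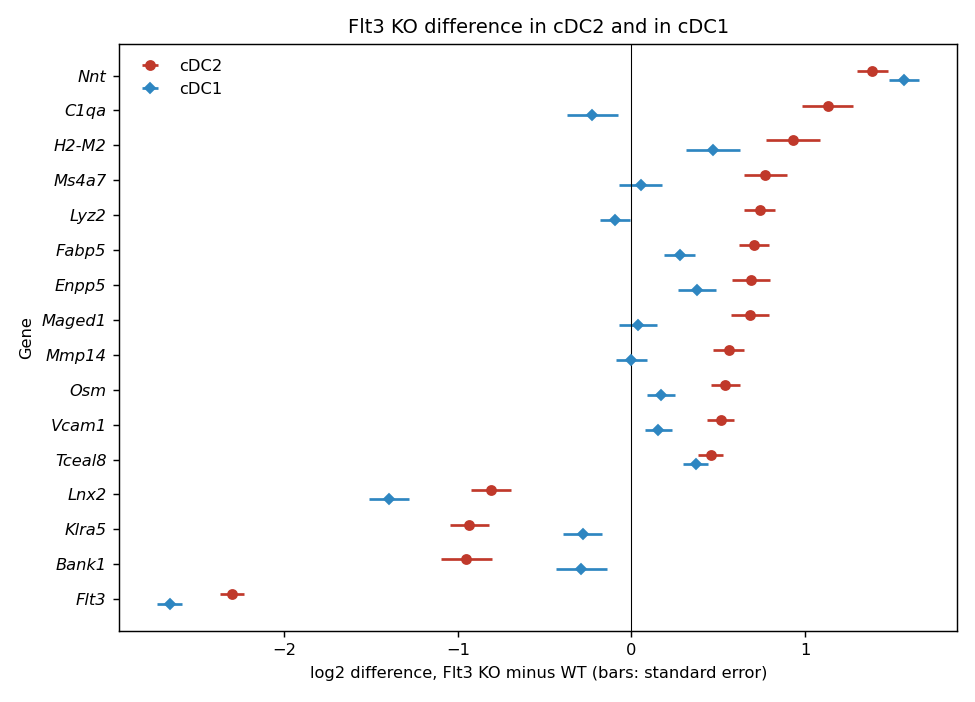
Log2 difference Flt3 KO minus WT (± SE from limma) of the 16 genes called in cDC2, in cDC2 (circles) and in cDC1 (diamonds), from 2 arrays per group. Flt3, Nnt and Lnx2 are far from 0 in both cell types, while C1qa and Lyz2 are above 0 in cDC2 and below 0 in cDC1.

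Loss of the ligand in the same cell type, set directly against loss of the receptor, leaves out the WT arrays. Between Flt3 KO cDC2 and Flt3L KO cDC2, 139 genes were called (0.93%), 70 higher (0.468%) and 69 lower (0.461%) in Flt3 KO cDC2. The count was 50 without replicate 1 and 21 without replicate 2 of Flt3 KO cDC2, and 8 without replicate 1 of Flt3L KO cDC2. Of the 16 genes, 6 were among the 139: Flt3, Lnx2, H2-M2, Tceal8, Vcam1 and C1qa. H2-M2 had 668 and 823 in Flt3 KO cDC2, against 274 and 363 in Flt3L KO cDC2 (1.23 ± 0.15, adjusted p = 0.00362), so it was higher in the receptor knockout. C1qa had 363 and 279.8 in Flt3 KO cDC2, against 790.0 and 569 in Flt3L KO cDC2 (-1.07 ± 0.15, adjusted p = 0.00697). Vcam1 had 129.6 and 121 in Flt3 KO cDC2, against 194 and 205 in Flt3L KO cDC2 (-0.67 ± 0.077, adjusted p = 0.00245). These macrophage-type genes were thus lower with the receptor lost than with the ligand lost, while above WT in both.

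Other genes that separated the knockouts were the scavenger receptor Cd36, the dead-cell receptor Mertk, the ubiquitin ligase Mid1 and the lipid transporter Abca9. Cd36 had 72.9 and 63.2 in Flt3 KO cDC2, against 143 and 124 in Flt3L KO cDC2 (adjusted p = 0.00147), and Mertk had 36.9 and 33.3 in Flt3 KO cDC2, against 60.6 and 57.4 in Flt3L KO cDC2 (adjusted p = 0.00175). Mid1 had 198 and 359 in Flt3 KO cDC2, against 1554 and 1382 in Flt3L KO cDC2 and 398 and 395 in WT cDC2. The 2 receptor knockout arrays of Mid1 lay far from each other. Abca9 had 169 and 177 in Flt3 KO cDC2, against 77.4 and 82.1 in Flt3L KO cDC2 (adjusted p = 0.000265). Cd209a, a lectin of cDC2, had 1562 and 1517 in Flt3 KO cDC2, against 759 and 799 in Flt3L KO cDC2 and 1587 and 1491 in WT cDC2.

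Flt3L KO cDC2 against WT cDC2 shares the WT arrays with the receptor comparison, so values are given side by side only. That comparison called 291 genes (1.95%), and 10 of the 16 genes were among them. Lyz2 differed from WT by 0.74 ± 0.088 in Flt3 KO cDC2 and by 0.75 ± 0.088 in Flt3L KO cDC2. Fabp5 differed by 0.71 ± 0.087 in Flt3 KO cDC2 and by 0.81 ± 0.087 in Flt3L KO cDC2. The C1q and macrophage list had a median difference of 0.23 in Flt3 KO cDC2 and 0.52 in Flt3L KO cDC2. Interferon-stimulated genes had a median of -0.21 in Flt3 KO cDC2 and 0.20 in Flt3L KO cDC2.

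**Figure D5:**
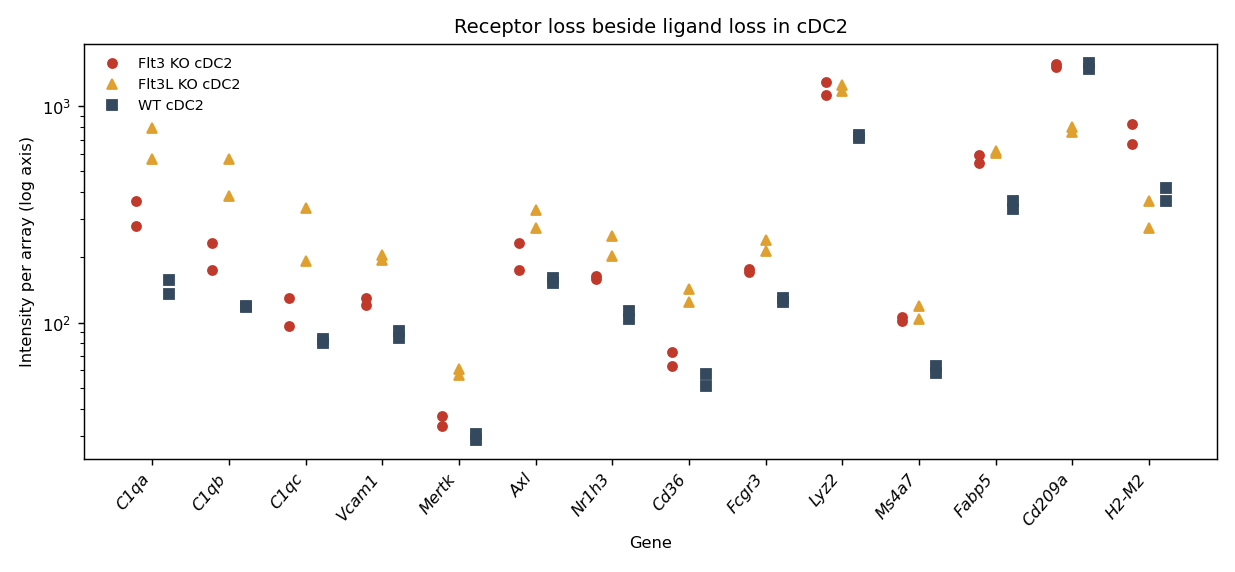
Intensity (log axis) of 14 genes on each array of Flt3 KO cDC2 (circles), Flt3L KO cDC2 (triangles) and WT cDC2 (squares), n = 2 each. The C1q genes, Vcam1 and Mertk are highest in Flt3L KO cDC2, while H2-M2 is highest in Flt3 KO cDC2 and Cd209a is lowest in Flt3L KO cDC2.

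Flt3 and Nnt kept their calls under all 14 alternatives tried. The other 14 genes each lost the call when at least 1 array was left out, and the number of genes called was 6 without replicate 1 of WT cDC2, 2 without replicate 2 of WT cDC2, 2 without replicate 1 of Flt3 KO cDC2 and 5 without replicate 2 of Flt3 KO cDC2. None of the 16 changed direction under any setting in which it was tested, but this was largely fixed in advance. The groups did not overlap for any of these genes, so leaving out 1 array could not turn a sign. Most of the other settings left the log2 difference itself unchanged.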

How the data were processed

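RNA of sorted splenic dendritic cells was measured on 12 GeneChip arrays. The authors deposited linear intensities for each probe set; for their summarisation and normalization, the method was not given in the sources used here. In all, 30177 probe sets had values: 21789 had 1 gene symbol, 1621 had several and 6767 were not in the probe table. Symbols were checked against RefSeq by Entrez ID for 21698 probe sets, and 0 were changed. The brightest probe set by mean stood for each of the 999 genes with several. Of 19938 genes, the dimmest share of 0.25 by mean was dropped (Flt3 and Flt3l exempt), so 14953 were tested.

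Log2 intensities were fitted with limma 3.58.1 under R 4.3.3, 1 mean per group over 12 arrays and 6 residual degrees of freedom, and Benjamini-Hochberg adjustment ran within each comparison. The number of arrays limits the precision. The procedure was tested on simulated data. Alternatives were quantile normalization, other filters, another variance prior, the mean of probe sets, an offset of 16, subsets of arrays, a replicate block and leaving out each array.

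Genes were named by a rule: Flt3 and Flt3l, called genes, neighbours of Flt3, cell type markers, members of the main lists, the 5 smallest p-values of other lists, and the top 10 of the other comparisons. The members and lists were chosen with earlier results of these data known.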

Additional observations from a re-analysis of the deposited data

How the results depend on the processing

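Against the 16 genes called in Flt3 KO cDC2, limma called 10 with no filter on dim genes and 9 when the dimmer share of 0.5 was dropped. That second filter removed Enpp5, Klra5, Maged1, Ms4a7, Osm and Tceal8 before testing. Of the called genes still tested, H2-M2 alone lost its call (limma adjusted p = 0.0519). The count was 36 with a trended and robust variance prior (all 16 among them) and 35 with an offset of 16 before log2. Leaving out 1 array gave 2 to 6. The labels tie no replicate number to a shared animal or batch, and the numbers were not taken as pairs. Deviations of same-numbered arrays had a correlation across genes of -0.101 for Flt3 KO with WT cDC2, 0.172 for Flt3 KO with Flt3L KO cDC2, 0.088 for Flt3 KO cDC2 with Flt3 KO cDC1 and 0.159 for WT cDC2 with WT cDC1. A replicate block gave 14 calls, 12 of them shared. A block with the WT numbers crossed, chosen after seeing the data, gave 18. For the difference of effects between cDC2 and cDC1, 0 calls became 5 with the trended prior, 5 with the offset, and 0 to 170 with 1 array left out; the replicate block gave 0. The 139 calls between Flt3 KO cDC2 and Flt3L KO cDC2 became 268 with the trended prior, 242 with the offset, 127 with the replicate block, and 8 to 130 with 1 array left out. The lowest came without replicate 1 of Flt3L KO cDC2. For the difference of effects, the highest count came with replicate 1, which differed most in its quartiles, as the only WT cDC1 array. Among uncalled genes, Cd209a turned sign under quantile normalization (-0.006) and without 1 array (-0.044 to 0.046 over those left out), as did Kit (-0.119 to 0.047) and Xcr1 (-0.306 to 0.001). Of 65 named genes, 16 were called and 49 were not. Over these settings 799 of their values kept direction and side of the threshold, 75 lost the call, 20 gained it and 5 turned sign. Only the 16 called genes could lose a call, so all 75 losses were theirs. The 799 include the values of the 49 uncalled genes that stayed uncalled. The causes were not tested. A group with 1 array left was assumed to vary like the others, and dim genes such as Klra5 limit the precision of folds.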

Other observations

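Several genes outside the lists had small p-values without a call and were chosen after their values were seen. Abcg2, a multidrug efflux transporter, had 62.1 and 61.95 in Flt3 KO cDC2, against 43.0 and 45.9 in WT cDC2 (0.48 ± 0.082, limma adjusted p = 0.0582). Procr, the endothelial protein C receptor, had 179.5 and 184 in Flt3 KO cDC2, against 135 and 131 in WT cDC2 (limma adjusted p = 0.0866). Cd200, an inhibitory ligand, had 109 and 108 in Flt3 KO cDC2, against 84.7 and 76.4 in WT cDC2 (limma adjusted p = 0.104). The groups did not overlap for any of these 3 genes. Of 5315 tested probe sets without a single symbol, limma called 0 at adjusted p 0.05 (smallest 0.492), and 301 had an unadjusted p under 0.05.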
